A study of Mus musculus with 8 samples.

Results

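A set of 10 genes of the Notch pathway was followed in immortalized mouse pancreatic stellate cells (PSCs): the receptors Notch1, Notch2 and Notch3, the ligands Jag1 and Jag2, the target genes Hes1 and Hey1, and the Deltex genes Dtx2, Dtx3 and Dtx4. The 10 genes were chosen by symbol from the count table of 12160 genes, with earlier fold changes of the same libraries in view. Their values are therefore given as a description, and no count of calls among them is read as support for a pattern. Of the 10 genes, 8 had a row in the table. Jag1 and Jag2 were not analysed here, so no ligand among the 10 has a value below.

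PSCs are the resident fibroblasts of the pancreas that take on a contractile or a secretory state around a tumor. The cells were grown for 4 days in growth medium as 3D cultures in Matrigel, and the medium was then exchanged for another 4 days. In 3 libraries the cells received medium conditioned by KPC organoids expressing a short hairpin RNA against Brca2 (shBrca2-CM), and in 3 libraries medium conditioned by KPC organoids with a nontargeting hairpin (shControl-CM). KPC organoids derive from primary tumors of a mouse model of pancreatic cancer. In 2 libraries the cells received control medium, labelled as medium conditioned by PSCs themselves but titled DMEM, and described elsewhere by the study as growth medium. Organoid medium was collected in DMEM with less serum than growth medium, and serum and organoid products cannot be told apart if the control was growth medium. The silenced gene was in the organoids and not in the PSCs, so these libraries hold no check of the knockdown. The PSCs are a single immortalized line, and the replicates are separate Matrigel domes, so p-values measure only the spread between domes. Bulk RNA was read at its 3′ end, and fewer cells of a kind cannot be told apart from less RNA per cell.

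Notch receptors are single-pass membrane proteins that are cut when a ligand on a neighbouring cell, such as a Jagged or Delta-like protein, binds and pulls on them. ADAM proteases and then gamma-secretase release the intracellular domain, which enters the nucleus, joins the DNA-binding protein RBPJ and Mastermind proteins, and turns on genes of the HES and HEY repressors. Deltex proteins are ubiquitin ligases, the founding member of which binds the intracellular domain of Notch and alters its trafficking. In fibroblasts and mural cells, Notch signalling is known for its part in differentiation toward contractile states.

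Counts per library summed to between 655996 and 1095534 with shBrca2-CM, between 1093609 and 1624392 with shControl-CM, and to 5476988 and 4623846 in control medium, so depth differed with the group. A floor of 3 counts corresponded to between 1.92 and 4.34 CPM (library-scaled counts) in the conditioned medium libraries and to 0.521 and 0.645 CPM in control medium. Such floors, and the intervals on shares below, cover counting error only. All 11 stellate cell and fibroblast markers of a fixed list were detected in every group, with a summed level of 3242 to 3408 CPM with shBrca2-CM, 4219 to 4763 CPM with shControl-CM and 5453 to 6519 CPM in control medium. Single markers moved in opposite directions within these sums: mean Vim was 3756 CPM in control medium, 586 CPM with shBrca2-CM and 361 CPM with shControl-CM, while mean Dcn was 92.4, 1086 and 2107 CPM, respectively. Of 8 epithelial markers, 3 had a row (Krt18, Krt19 and Sox9), summing to 39.1 to 56.8 CPM, 26.1 to 33.3 CPM and 41.0 to 41.7 CPM, respectively. Of these, mean Krt18 was 2.20 CPM in control medium, 14.4 CPM with shBrca2-CM and 12.2 CPM with shControl-CM, and mean Krt19 was 24.9, 11.8 and 2.82 CPM. The 2 endothelial markers with a row summed to at most 3.48 CPM in any library, and the 2 immune markers to between 13.0 and 23.1 CPM with the conditioned media and between 7.52 and 9.04 CPM in control medium. Replicates differed beyond counting noise, with a chi-square per degree of freedom of 1.65 to 1.94 among shBrca2-CM libraries, 2.99 to 8.35 among shControl-CM libraries, highest between replicates 1 and 3, and 6.64 between the control libraries. The part of these marker levels in the values below was not tested.

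To place the genes whose levels moved together against control medium, the 250 bases upstream of the annotated gene start are shown for the 2 members that were higher with both conditioned media (Notch2 and Dtx2) and for the 2 receptors that were lower with both (Notch1 and Notch3). The sequences are from RefSeq on build GRCm38.p6, the assembly also called mm10, and are written 5′ to 3′ on the strand of the gene. Capitals mark matches, on either strand, to the GC box GGGCGG in Notch1, Notch2 and Notch3, and to the RBPJ core letters TGGGAA in Dtx2. The window of Notch1 is chr2:26503823-26504072 (minus strand), that of Notch2 chr3:98013288-98013537 (plus strand), that of Notch3 chr17:32166891-32167140 (minus strand) and that of Dtx2 chr5:135994550-135994799 (plus strand). Windows and gene positions came from separate RefSeq tables, and the Notch3 window overlaps the gene as positioned below by 6 bases.
Notch2: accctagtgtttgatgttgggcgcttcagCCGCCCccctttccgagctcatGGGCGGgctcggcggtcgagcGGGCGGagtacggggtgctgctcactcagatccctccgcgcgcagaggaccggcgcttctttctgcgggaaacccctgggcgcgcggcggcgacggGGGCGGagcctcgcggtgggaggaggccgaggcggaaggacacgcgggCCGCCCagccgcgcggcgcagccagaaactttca
Dtx2: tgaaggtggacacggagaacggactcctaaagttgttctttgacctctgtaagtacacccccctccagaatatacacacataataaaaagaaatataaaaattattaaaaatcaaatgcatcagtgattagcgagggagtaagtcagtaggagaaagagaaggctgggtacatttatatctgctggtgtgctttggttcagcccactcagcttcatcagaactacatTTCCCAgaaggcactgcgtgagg
Notch1: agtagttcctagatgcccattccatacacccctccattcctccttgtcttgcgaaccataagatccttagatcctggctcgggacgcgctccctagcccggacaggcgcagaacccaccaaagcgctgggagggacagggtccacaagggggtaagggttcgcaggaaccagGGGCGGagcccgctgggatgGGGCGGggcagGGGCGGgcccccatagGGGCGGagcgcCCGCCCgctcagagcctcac
Notch3: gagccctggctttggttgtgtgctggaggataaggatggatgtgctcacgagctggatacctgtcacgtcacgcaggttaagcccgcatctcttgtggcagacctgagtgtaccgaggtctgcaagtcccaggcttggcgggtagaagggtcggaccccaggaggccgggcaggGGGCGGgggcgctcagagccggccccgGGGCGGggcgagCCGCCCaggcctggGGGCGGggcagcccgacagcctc
The GC box letters occurred 5 times upstream of Notch1, 5 times upstream of Notch2 and 4 times upstream of Notch3, and not in the Dtx2 window. Over all 32851 RefSeq windows of this length, 32.7% held them. The RBPJ core letters occurred once, starting 23 bases before the gene start of Dtx2, and in none of the 3 receptor windows, against 21.6% of all windows. The matches in these windows did not overlap, and they describe letters and not binding. Hes1, Hey1, Dtx3 and Dtx4 had no entry in the sequence table.

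Pairs of groups were compared with edgeR's quasi-likelihood test over all genes, and a gene was called when its adjusted p was under 0.1, its log2 fold change beyond 0.5 in either direction and its mean normalized count above 5. Between shBrca2-CM and shControl-CM, 1 of the 7 members tested was called, Dtx4, while 3.09% of all genes were called (1.54% higher and 1.55% lower with shBrca2-CM). No member was called lower there by edgeR or by DESeq2. At an unadjusted edgeR p under 0.05 were 3 members, Hes1 lower and Notch3 and Dtx4 higher, and 1476 of all 11035 genes tested. Against control medium, shControl-CM gave 5 calls among 8 members, 2 higher and 3 lower, where 37.1% of all genes were called (18.2% higher and 18.9% lower). With shBrca2-CM 6 of 8 members were called, 3 higher and 3 lower, where 37.8% of all genes were called (18.6% higher and 19.2% lower). Both comparisons with control medium used the same 2 control libraries, and a deviation of those libraries moves both fold changes the same way. Libraries did not overlap for 7243 of all 12086 genes tested with shControl-CM against control medium (members 7 of 8). With shBrca2-CM against control medium this held for 6917 of 12049 (members 8 of 8), and between the conditioned media for 2184 of 11035 (members 4 of 7). A lack of overlap is therefore given below as a description and does not by itself set a gene apart. Notch2 and Dtx2 were called higher with each conditioned medium, and Notch1, Notch3 and Hes1 lower. The median log2 fold change of the members was 0.11 between the conditioned media (all genes 0.03). It was -0.66 for shControl-CM against control medium (all genes -0.10) and 0.40 for shBrca2-CM against control medium (all genes -0.05), with Hey1, which had no count in conditioned medium, left out of both. With the fitted value of Hey1 the medians were -0.87 and -0.14, so the sign with shBrca2-CM rests on leaving it out, and without it each median is the value of a single gene (Dtx4 and Dtx3, respectively).

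**Figure D1:**
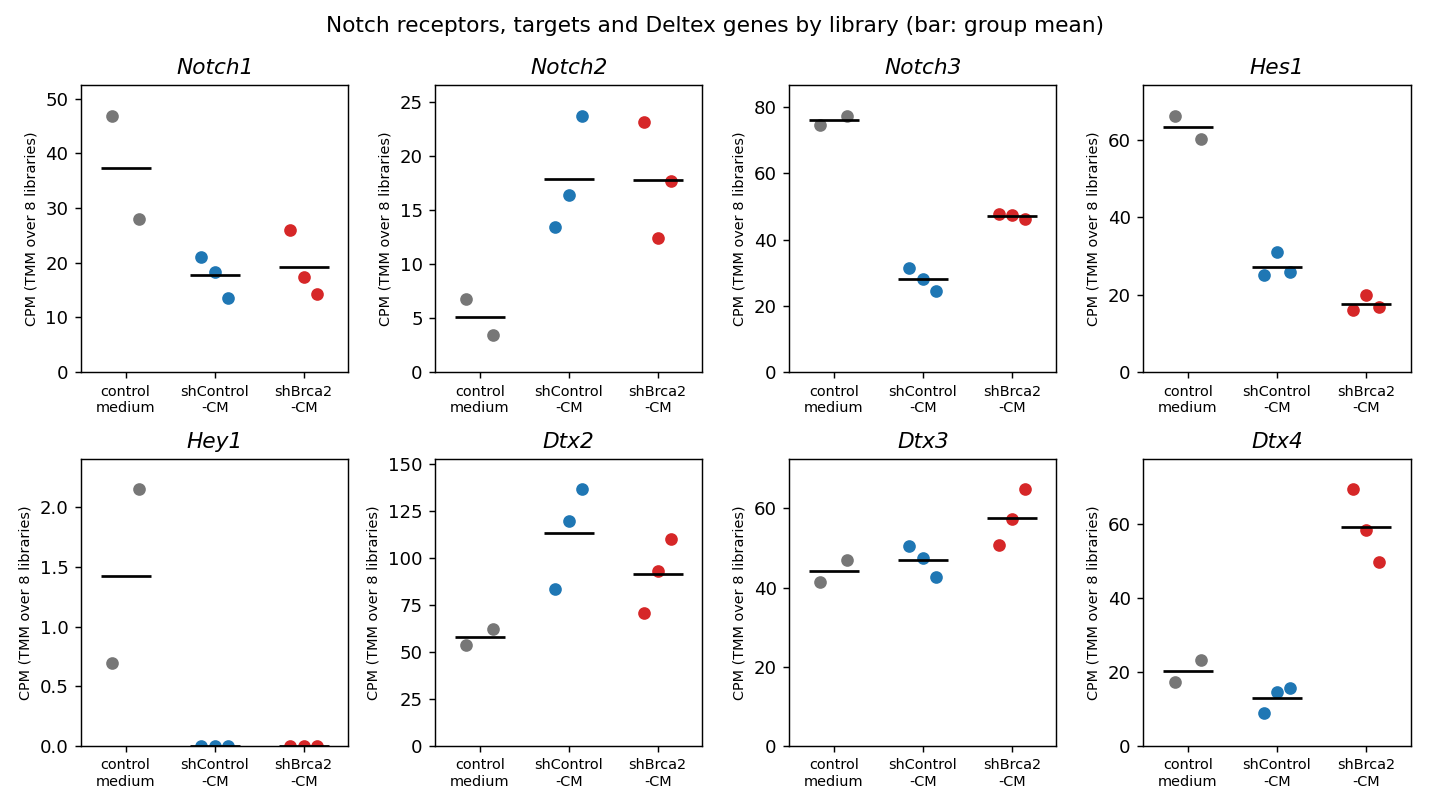
Expression of the 8 members with a row, in CPM; each point is a library and each horizontal line the group mean. Dtx4 was at 49.7 to 69.4 CPM with shBrca2-CM and at 8.97 to 15.6 CPM with shControl-CM, and Hey1 was at 0 in all 6 conditioned medium libraries.

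The 3 receptors went in different directions against control medium. Notch1 and Notch3 fell with both conditioned media, Notch2 rose with both, and none of the 3 was called between shBrca2-CM and shControl-CM. CPM values were normalized over the 8 libraries together. Levels are not compared between genes, since 3′ reads can differ in capture from gene to gene.

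Notch3, the receptor best known from vascular smooth muscle and pericytes, lies at chr17:32120820-32166896 in GRCm38. It was counted 429 and 360 times in control medium, 33, 38 and 52 times with shBrca2-CM, and 49, 29 and 36 times with shControl-CM. In CPM these were 74.6 and 77.4, then 47.7, 47.3 and 46.2, and then 31.4, 28.02 and 24.5. The groups did not overlap: control medium was highest, shControl-CM lowest, and shBrca2-CM lay between them. Against control medium, Notch3 fell 2.72-fold with shControl-CM (log2 fold change -1.45 ± 0.20 standard error, SE, edgeR adjusted p = 5.82e-04) and 1.61-fold with shBrca2-CM (log2 fold change -0.69 ± 0.18 SE, edgeR adjusted p = 0.00168). The fall with shControl-CM stayed called in all 14 alternatives. That with shBrca2-CM lost its call in 1 of 14, a stricter threshold that asked for a log2 fold change beyond 1. With shBrca2-CM Notch3 was 1.71-fold higher on average than with shControl-CM, without passing the threshold (log2 fold change 0.77, 95% interval 0.36 to 1.19, edgeR adjusted p = 0.1002). The call was close to the threshold. It passed when shControl-CM replicate 1 was left out (log2 fold change 0.85, edgeR adjusted p = 0.0483), when library totals replaced TMM, with edgeR's own expression filter and with all groups in one fit, and the adjusted p ranged from 0.0483 to 0.339 over 15 alternatives.

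Notch1, the receptor studied most in T cells and epithelia, lies at chr2:26457902-26503822. Its counts were 270 and 130 in control medium, 18, 14 and 16 with shBrca2-CM, and 33, 19 and 20 with shControl-CM. The levels were 46.9 and 27.9 CPM in control medium, 26.0, 17.4 and 14.2 CPM with shBrca2-CM, and 21.1, 18.4 and 13.6 CPM with shControl-CM. All 6 conditioned medium libraries lay below both control libraries, which themselves differed more than for Notch3, and the conditioned media overlapped each other. Notch1 fell with shControl-CM (log2 fold change -1.09 ± 0.31 SE, edgeR adjusted p = 0.023) and likewise with shBrca2-CM (log2 fold change -1.03 ± 0.26 SE, edgeR adjusted p = 0.00124). Apart from that stricter threshold, these calls were less firm than those of Notch3. Without control medium replicate 1 the fall with shControl-CM was no longer called (log2 fold change -0.65, edgeR adjusted p = 0.319), and with every library thinned to the smallest total neither fall was (log2 fold change -0.62, edgeR adjusted p = 0.302, and log2 fold change -0.54, edgeR adjusted p = 0.289). Over 14 alternatives each, the adjusted p ranged from 0.00478 to 0.319 with shControl-CM and from 6.22e-06 to 0.289 with shBrca2-CM. Between the conditioned media the log2 fold change was 0.11 with a 95% interval of -0.55 to 0.77 (edgeR adjusted p = 0.929).

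Notch2, a receptor with a widely expressed role in development of liver, kidney and B cells, lies at chr3:98013538-98150367. It was counted 39 and 16 times in control medium, although those libraries were deepest, 16, 10 and 20 times with shBrca2-CM, and 21, 17 and 35 times with shControl-CM. This gave 6.78 and 3.44 CPM in control medium, 23.2, 12.4 and 17.8 CPM with shBrca2-CM, and 13.5, 16.4 and 23.8 CPM with shControl-CM. Every conditioned medium library lay above both control libraries, and the conditioned media spanned nearly the same range. Notch2 rose 3.41-fold with shControl-CM (log2 fold change 1.77 ± 0.40 SE, edgeR adjusted p = 0.00800) and 3.35-fold with shBrca2-CM (log2 fold change 1.74 ± 0.36 SE, edgeR adjusted p = 6.12e-05). Without control medium replicate 2 the rise with shControl-CM missed the threshold (log2 fold change 1.38, edgeR adjusted p = 0.115; range over 14 alternatives 7.80e-04 to 0.115), while that with shBrca2-CM stayed called in all 14 alternatives. The sizes depended on the control libraries. Without control medium replicate 1 the log2 fold changes of Notch2 were 2.37 with shControl-CM and 2.33 with shBrca2-CM, and without replicate 2 they were 1.38 for both. Compared between the conditioned media, the log2 fold change was 0.0042 with a 95% interval of -0.67 to 0.68 (edgeR adjusted p = 0.999).

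The receptors can also be set against each other within a library, where depth cancels out. Receptor counts are here those of Notch1, Notch2 and Notch3, without Notch4. Notch2 made up 5.28% of the 738 receptor counts in control medium replicate 1 (exact 95% binomial interval 3.78% to 7.15%) and 3.16% of 506 in replicate 2 (1.82% to 5.08%). With shControl-CM its share was 20.4% to 38.5%, and with shBrca2-CM 16.1% to 23.9%. The lowest interval bound of Notch2 in any conditioned medium library, 8.02%, lay above the highest bound in control medium. The share of Notch3 was 58.1% to 71.1% in control medium, 49.3% to 61.3% with shBrca2-CM and 39.6% to 47.6% with shControl-CM, so the 2 conditioned media did not overlap and shBrca2-CM overlapped control medium. That of Notch1 was 25.7% to 36.6%, 18.2% to 26.9% and 22.0% to 32.0%, respectively, and overlapped between all groups. These shares rest on 62 to 103 receptor counts per conditioned medium library and depend on how well each gene's 3′ end is captured.

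**Figure D2:**
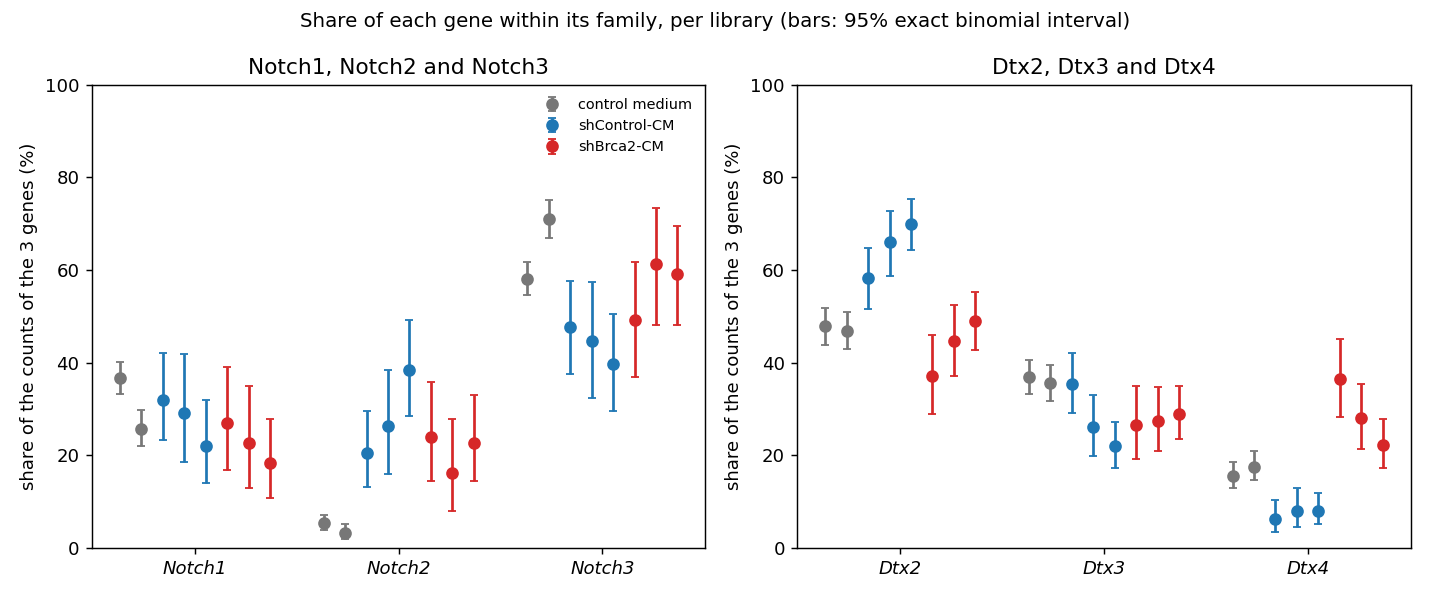
Share of each gene among the counts of Notch1, Notch2 and Notch3 (left) and of Dtx2, Dtx3 and Dtx4 (right), in percent, 1 point per library with its exact 95% binomial interval. The Notch2 share was at most 5.28% in control medium and at least 16.1% in conditioned medium, and the Dtx4 share was 22.1% to 36.4% with shBrca2-CM and 6.28% to 8.01% with shControl-CM.

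Among the target genes, Hes1 fell with both conditioned media. Hes1 encodes a basic helix-loop-helix repressor that is a direct target of the Notch intracellular domain in many tissues and also responds to other pathways. The gene lies at chr16:30065357-30067796. It was counted 381 and 280 times in control medium, 11, 16 and 19 times with shBrca2-CM, and 39, 32 and 38 times with shControl-CM. The levels were 66.2 and 60.2 CPM in control medium, 15.9, 19.9 and 16.9 CPM with shBrca2-CM, and 24.99, 30.9 and 25.8 CPM with shControl-CM. No groups overlapped, and the order was control medium, shControl-CM and shBrca2-CM from high to low. Hes1 fell 2.35-fold with shControl-CM (log2 fold change -1.23 ± 0.21 SE, edgeR adjusted p = 0.00180) and 3.59-fold with shBrca2-CM (log2 fold change -1.85 ± 0.23 SE, edgeR adjusted p = 1.10e-09), and both calls held in all 14 alternatives. The difference between the conditioned media was not called (log2 fold change -0.60, 95% interval -1.12 to -0.07, edgeR adjusted p = 0.362). Notch3 and Hes1 thus had opposite orders of the conditioned media, with Notch3 higher and Hes1 lower on average with shBrca2-CM, neither past the threshold.

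Hey1, a related repressor known from endothelial and mural cells, lies at chr3:8663359-8667038. It was counted 4 and 10 times in control medium (0.695 and 2.15 CPM) and 0 times in all 6 conditioned medium libraries. At the mean level of control medium, 1.42 CPM, the 3 shBrca2-CM libraries together would hold 3.73 counts and the 3 shControl-CM libraries 5.78. Hey1 was lower with an edgeR adjusted p of 0.0821 with shBrca2-CM and 0.0900 with shControl-CM, but its mean normalized count was under the minimum of 5, so it was not called. Its fitted fold depends on the prior count and is not given.

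The Deltex genes each had their own pattern. Dtx4 was higher with shBrca2-CM than in both other media, Dtx2 rose with both conditioned media, and Dtx3 was called in no comparison.

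Dtx4, a Deltex ubiquitin ligase reported to act on Notch as well as on the innate immune kinase TBK1, lies at chr19:12466329-12502179. It was counted 48, 47 and 56 times with shBrca2-CM and 14, 15 and 23 times with shControl-CM, although the shBrca2-CM libraries held fewer counts in all, and 100 and 108 times in control medium. The levels were 69.4, 58.5 and 49.7 CPM with shBrca2-CM, 8.97, 14.5 and 15.6 CPM with shControl-CM, and 17.4 and 23.2 CPM in control medium. Every shBrca2-CM library lay above every other library, and every shControl-CM library below both control libraries. Dtx4 was 4.61-fold higher with shBrca2-CM than with shControl-CM (log2 fold change 2.21 ± 0.27 SE, edgeR adjusted p = 9.43e-04). It was 2.89-fold higher than in control medium (log2 fold change 1.53 ± 0.21 SE, edgeR adjusted p = 2.95e-08). Both calls held under every alternative (15 and 14), and the log2 fold change against shControl-CM stayed between 1.95 and 2.37 with adjusted p of at most 0.0146. With shControl-CM Dtx4 was 1.58-fold lower on average than in control medium and missed the threshold (log2 fold change -0.66, 95% interval -1.28 to -0.04, edgeR adjusted p = 0.137). It passed when shControl-CM replicate 3 was left out (log2 fold change -0.84, edgeR adjusted p = 0.0598) and under 3 further alternatives, and the adjusted p ranged from 0.0492 to 0.806 over all 14.

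Dtx2, a close relative of the founding Deltex protein, lies at chr5:135994800-136032881. It was counted 309 and 289 times in control medium, 49, 75 and 124 times with shBrca2-CM, and 130, 124 and 201 times with shControl-CM. In CPM this was 53.7 and 62.1 in control medium, 70.9, 93.3 and 110 with shBrca2-CM, and 83.3, 120 and 137 with shControl-CM. All conditioned medium libraries lay above control medium, with a wide spread within each conditioned medium and an overlap between them. Dtx2 rose with shControl-CM (log2 fold change 0.96 ± 0.22 SE, edgeR adjusted p = 0.00924) and likewise with shBrca2-CM (log2 fold change 0.69 ± 0.17 SE, edgeR adjusted p = 0.00105). Neither rise was called at the stricter threshold that asked for a log2 fold change beyond 1. Without control medium replicate 1 the rise with shControl-CM was not called (log2 fold change 0.87, edgeR adjusted p = 0.124; range over 14 alternatives 1.59e-04 to 0.124). For shBrca2-CM against shControl-CM the log2 fold change was -0.26 with a 95% interval of -0.67 to 0.15 (edgeR adjusted p = 0.664).

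Dtx3, a shorter Deltex protein with the RING domain but without the domains that bind Notch, lies at chr10:127190373-127196498. Its counts were 238 and 219 in control medium, 35, 46 and 73 with shBrca2-CM, and 79, 49 and 63 with shControl-CM. The levels were 41.4 and 47.1 CPM in control medium, 50.6, 57.2 and 64.8 CPM with shBrca2-CM, and 50.6, 47.4 and 42.8 CPM with shControl-CM. The values with shBrca2-CM lay at or above all others, by less than the rounding at the nearest pair of libraries. No comparison called Dtx3. The log2 fold change against control medium was 0.40 with shBrca2-CM (95% interval 0.03 to 0.77, edgeR adjusted p = 0.0822, under the fold threshold) and 0.08 with shControl-CM (95% interval -0.31 to 0.47, edgeR adjusted p = 0.779), and between the conditioned media it was 0.33 (95% interval -0.03 to 0.69, edgeR adjusted p = 0.489). Without control medium replicate 2 the difference of shBrca2-CM from control medium was called (log2 fold change 0.51, edgeR adjusted p = 0.0480; range over 14 alternatives 0.0480 to 0.362).

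Deltex counts are here those of Dtx2, Dtx3 and Dtx4, without Dtx3l. Within these counts of a library, the share of Dtx4 separated all 3 groups by its point values. It was 15.5% to 17.5% in control medium, 22.1% to 36.4% with shBrca2-CM and 6.28% to 8.01% with shControl-CM, on 132 to 647 Deltex counts per library. The share of Dtx2 was 46.9% to 47.8%, 37.1% to 49.0% and 58.3% to 70.0%, respectively, and that of Dtx3 35.6% to 36.8%, 26.5% to 28.9% and 22.0% to 35.4%. Dtx2 thus took its highest share of Deltex counts with shControl-CM.

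**Figure D3:**
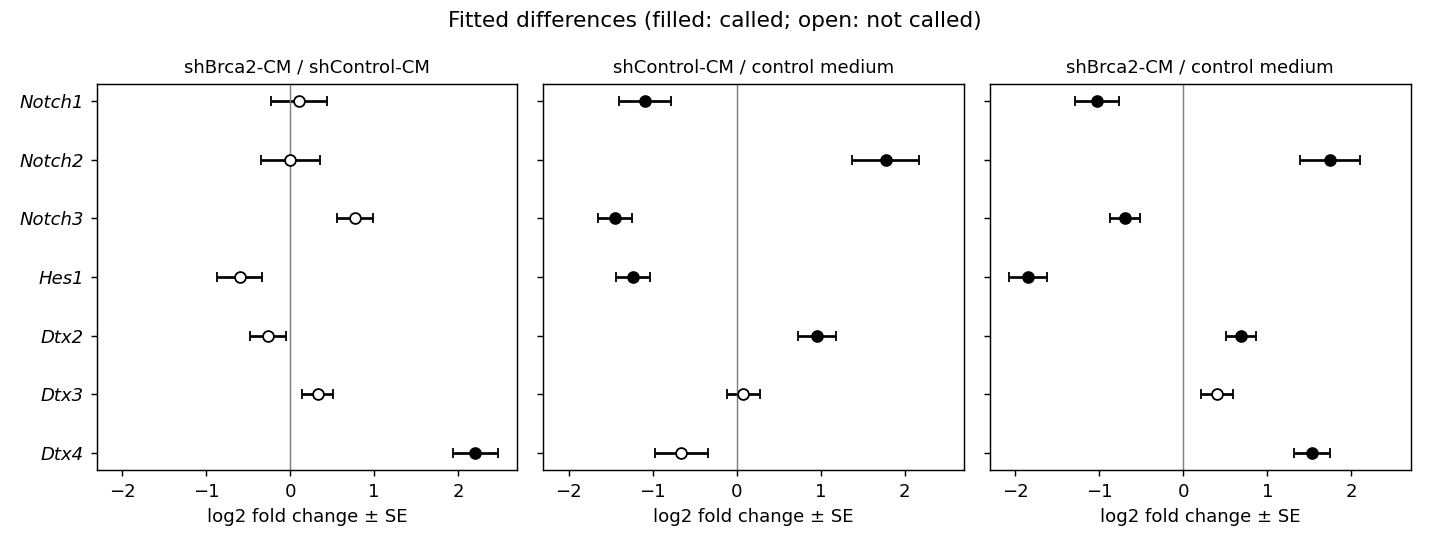
Log2 fold change of each tested member in the 3 comparisons, with bars of 1 SE of the edgeR fit; filled points were called, open points were not, and Hey1 is not drawn. Dtx4 was the member with the largest difference between the conditioned media (2.21), and Notch1, Notch3 and Hes1 lay below 0 and Notch2 and Dtx2 above 0 against control medium with both.

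Several members overlap other annotated genes in GENCODE release M39. A long noncoding RNA on the opposite strand covers the 3′ end of Notch1, of Notch3 and of Dtx3, and others overlap Notch2, Hes1 and Hey1 away from the 3′ end. No overlapping gene was found for Dtx2 or Dtx4. Whether reads were counted by strand is not given in the sources used here, so reads of these genes and their antisense partners cannot be told apart. Of these partners only 0610009E02Rik, at the 3′ end of Notch1, had a row, with 17 and 10 counts in control medium and 1 to 4 counts in each conditioned medium library.

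A fixed list of 62 other Notch pathway genes, 51 of them with a row, was read alongside the members. Between the conditioned media 1 of the 49 tested was called, the corepressor Tle2. Against control medium 20 of 51 were called with shControl-CM (8 higher and 12 lower) and 18 of 51 with shBrca2-CM (8 higher and 10 lower), shares near the 37.1% and 37.8% called over all genes, so the counts of the list and of its groups below do not set it apart. The median log2 fold change of the list was -0.02 between the conditioned media, and -0.13 with shControl-CM and -0.08 with shBrca2-CM against control medium, with Hey2 left out of the last 2 because it had no count in conditioned medium. Named below are Tle2 and up to 2 called genes per group of the list with the largest change against control medium.

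Of the other ligand genes, Dlk1 and Dlk2, membrane proteins that resemble Delta but lack the domain that activates Notch, were called lower with both conditioned media. Dlk2 was counted 96 and 84 times in control medium, 0, 2 and 1 times with shBrca2-CM, and 6, 4 and 5 times with shControl-CM. It fell with shControl-CM (log2 fold change -2.23 ± 0.34 SE, edgeR adjusted p = 0.00117), and its counts with shBrca2-CM were under the floor. Dlk1 was counted 38 and 30 times in control medium and at most 3 times in any conditioned medium library, at or below the floor, so no fold is given for it. The other Deltex gene with a row, Dtx3l, a partner of the ADP-ribosyltransferase PARP9, was at 4.17 and 6.02 CPM in control medium, 8.88 to 11.6 CPM with shBrca2-CM and 8.70 to 15.6 CPM with shControl-CM. It rose with both (log2 fold change 1.03, edgeR adjusted p = 0.0337, and log2 fold change 1.28, edgeR adjusted p = 0.0257). Notch4, the remaining receptor, was called in no comparison (log2 fold change 0.51 with shBrca2-CM and 0.64 with shControl-CM against control medium). Of 8 further HES, HEY and NRARP targets, Hes6, Hes7 and Hey2 had a row, and edgeR and DESeq2 called 0 of them in each comparison. Of these, 1 (Hey2) was at an unadjusted edgeR p under 0.05 in both comparisons with control medium. So were 5319 of all 12086 genes tested with shControl-CM and 5655 of 12049 with shBrca2-CM.

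In the group that processes and glycosylates the receptors, Poglut1 rose and Lfng fell with both conditioned media. Poglut1, which adds O-glucose to the receptors, was at 16.3 and 16.1 CPM in control medium and at 29.0 to 39.1 CPM over the 6 conditioned medium libraries (log2 fold change 0.93, edgeR adjusted p = 0.00161, with shBrca2-CM, and log2 fold change 0.998, edgeR adjusted p = 0.0159, with shControl-CM). Lfng, the Fringe enzyme that changes which ligands a receptor prefers, was counted 63 and 51 times in control medium and 2 to 4 times per conditioned medium library (edgeR adjusted p = 0.00305 with shBrca2-CM and 0.00440 with shControl-CM), too near the floor for a fold. For the counts by group that follow, 18.2% and 18.9% of all genes were called higher and lower with shControl-CM, and 18.6% and 19.2% with shBrca2-CM. Of the 5 glycosyltransferases, 1 was higher and 1 lower with each conditioned medium. Of the 9 proteases with a row, 4 were higher and 1 lower with shControl-CM, and 2 were higher with shBrca2-CM. The one called lower was Adam10, the main ligand-dependent protease, with shControl-CM (log2 fold change -0.85, edgeR adjusted p = 0.0805).

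Of the genes that act with RBPJ in the nucleus, those of the activator complex and the corepressors were read separately. In the activator complex, 1 was higher and 3 lower with shControl-CM, and 1 higher and 2 lower with shBrca2-CM, of 8 with a row. Kat2b, an acetyltransferase called lower with both, was counted 53 and 40 times in control medium, 0, 6 and 0 times with shBrca2-CM, and 3, 0 and 0 times with shControl-CM. Maml2, a Mastermind coactivator, was counted 24 and 30 times, 2, 5 and 5 times, and 2, 0 and 0 times, and was called lower with shControl-CM, while its difference between the conditioned media was not called (edgeR adjusted p = 0.155). Because these counts lie near the floor, no fold is given. Among 11 corepressors, 3 were lower with shControl-CM, and 4 were lower and 1 higher with shBrca2-CM.

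Tle2, a Groucho corepressor that HES proteins recruit, was at 149, 151 and 185 CPM with shBrca2-CM, 84.6, 113 and 98.5 CPM with shControl-CM, and 119 and 104 CPM in control medium. It was higher with shBrca2-CM than with shControl-CM in every pair of libraries (log2 fold change 0.75 ± 0.16 SE, edgeR adjusted p = 0.0319). The call was lost without shBrca2-CM replicate 2 (log2 fold change 0.80, edgeR adjusted p = 0.125) and without replicate 3 (log2 fold change 0.64, edgeR adjusted p = 0.201), and over the 6 fits that each left out a library the adjusted p ranged from 0.0190 to 0.201. Its relative Tle1 fell with both conditioned media (log2 fold change -1.44, edgeR adjusted p = 1.23e-04, and log2 fold change -1.18, edgeR adjusted p = 0.0116). Ncor1, a corepressor of RBPJ and nuclear receptors, was at 48.0 and 47.5 CPM in control medium, 34.7, 32.4 and 27.5 CPM with shBrca2-CM, and 32.0, 15.5 and 2.04 CPM with shControl-CM, so that shControl-CM replicate 3 stood far below the others. Among the ubiquitin ligases and endocytic adaptors, 1 was higher and 2 lower with shControl-CM, and 2 were higher and 1 lower with shBrca2-CM, of 10. Nedd4, a ubiquitin ligase for several membrane proteins, fell with both (log2 fold change -1.05, edgeR adjusted p = 4.98e-09, and log2 fold change -1.23, edgeR adjusted p = 7.02e-04). Mib1, the ligase that drives ligand endocytosis, was called lower with shControl-CM (edgeR adjusted p = 0.0804), on 9, 2 and 2 counts, and was not called with shBrca2-CM, on 3, 6 and 6 counts. The difference of Mib1 between the conditioned media was not called either (edgeR adjusted p = 0.617). With DESeq2's likelihood ratio test, Dlk1, Dtx3l and Kat2b were not called with shBrca2-CM, nor were Adam10, Mib1 and Ncor1 with shControl-CM.

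**Figure D4:**
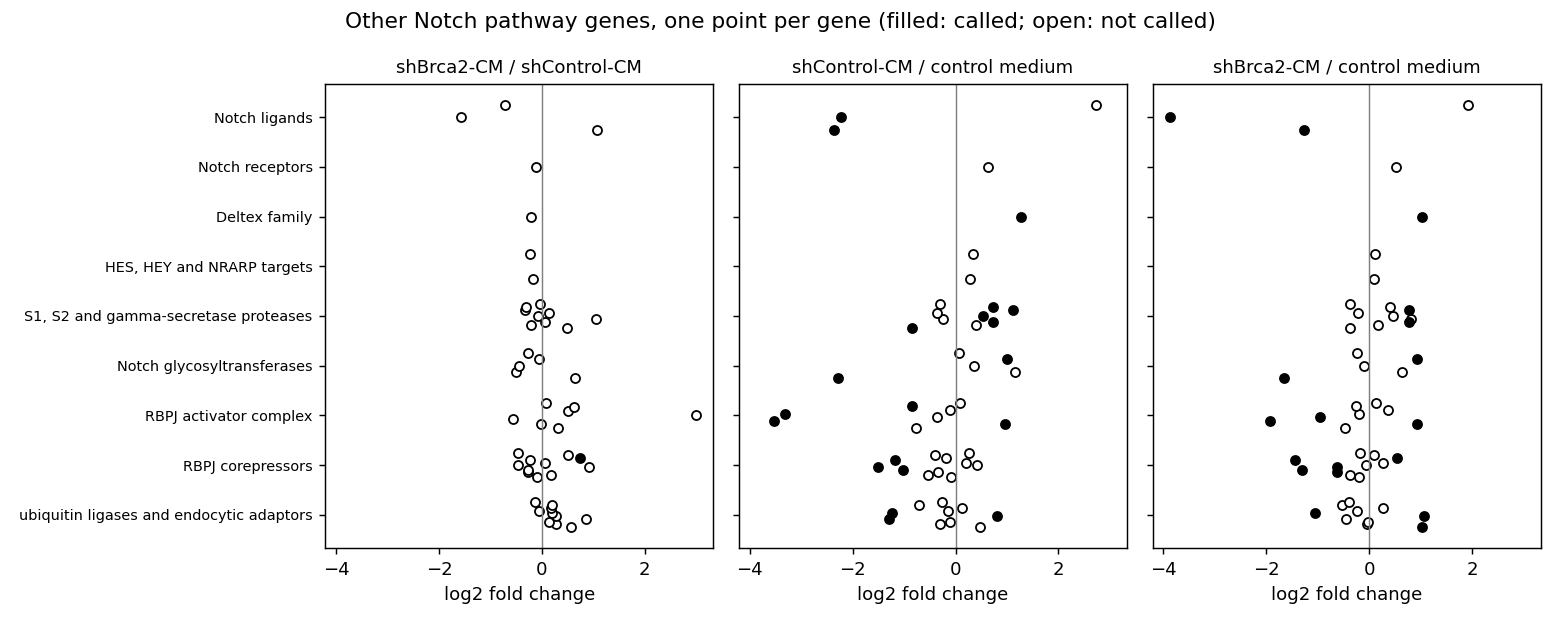
Log2 fold change of the other pathway genes in the 3 comparisons, 1 point per gene, grouped by place in the pathway (Hey2 is not drawn); filled points were called and open points were not. Between the conditioned media the single filled point is Tle2, while against control medium filled points lie on both sides of 0, 8 higher and 12 lower with shControl-CM and 8 higher and 10 lower with shBrca2-CM.

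For each member the genes with the nearest pattern over the 8 libraries were sought among 9109 genes, by the mean absolute difference of centred log2 CPM. Nearest to Notch3 were Cmtm3 (0.101) and Sdc2 (0.109), and nearest to Hes1 were Snhg6 (0.0935) and Mtln (0.114). Dtx2 was nearest to Jmjd8 (0.0821) and Arfgap1 (0.0902), and Dtx3 to Rps6kb2 (0.0809) and R3hdm2 (0.0829). For Notch1 the nearest were Taf11 (0.138) and Golph3l (0.142), and for Notch2 Gabbr1 (0.150) and Gm36712 (0.152). Dtx4 had no gene so near, the closest being Ltbp1 (0.268) and Cpxm1 (0.274). The measure is not scaled by the size of a gene's change, so a larger distance does not by itself show a separate pattern. No member appeared among the nearest genes of another.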

How the data were processed

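Gene counts from 3′ RNA sequencing (MARS-seq) of 8 PSC libraries were analysed as the authors deposited them, as raw counts per gene. The submitters' processing notes name bcl2fastq, cutadapt, STAR 2.4.2a, HTSeq, DESeq2 and build mm10. Whether molecular identifiers were collapsed is not given in the sources used here. Groups came from the treatment labels. There was 1 further count column, titled DMEM like the control libraries, that matched no sample and was not used.

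Pairs of groups were fitted in edgeR 4.0.16 (R 4.3.3) with TMM normalization, keeping genes whose libraries in the comparison summed to 10 counts or more, with Benjamini-Hochberg adjustment over all genes tested. The standard error was the log2 fold change divided by the square root of the F statistic, and 95% intervals of log2 fold changes take it as normally distributed, which is narrow for so few libraries. The call thresholds follow the study's methods. On simulated counts with 200 genes changed by 2 on the log2 scale, 198, 198 and 190 were recovered, with 10, 11 and 14 false calls, in the shBrca2-CM and shControl-CM, shControl-CM and control medium, and shBrca2-CM and control medium comparisons. The simulation gave all genes the same dispersion and changed only genes above a minimum mean count. Recovery of smaller changes, of low counts or with the spread of the real replicates was not tested. The thresholds were varied, and DESeq2 1.42.0, other normalizations and filters, thinned libraries, one fit of all groups, a replicate block and leaving out each library were tried. All members and gene lists were chosen with earlier results of these data known. Named are all members, other pathway genes called between the conditioned media, up to 2 called genes per list with the largest change against control medium (1 gene that this rule named is not reported here), and the 2 genes nearest in pattern to each member with at least 100 counts (prior count 2 for log2 CPM).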

Additional observations from a re-analysis of the deposited data

Results flagged for a closer look

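The response of Dtx4 against control medium differed between the conditioned media. In the direct fit of shBrca2-CM against shControl-CM its log2 fold change was 2.21 (edgeR adjusted p = 9.43e-04), with 3 of 3 shBrca2-CM libraries above all shControl-CM libraries. Tle2 had a log2 fold change of 0.75 in that fit (edgeR adjusted p = 0.0319), also with 3 of 3 libraries above. Libraries of the 2 conditioned media did not overlap for 2184 of all 11035 genes tested. Groups held 2 or 3 libraries, so no test for a single library far from the others was made.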

How the results depend on the processing

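Of 323 recomputed member values, 295 kept their direction and their side of the threshold, 8 lost a call, 9 gained one and 11 changed sign, none of them with a call. Between the conditioned media, Notch2 changed sign with DESeq2's likelihood ratio test (-0.015), DESeq2 size factors (-0.020), no count filter (-0.0047), all groups in one fit (-0.024), and without shBrca2-CM replicate 1 (-0.20), shControl-CM replicate 1 (-0.21) or replicate 2 (-0.065), a range of -0.21 to 0.26 when a library was left out, and Notch1 without shBrca2-CM replicate 1 (-0.15) or shControl-CM replicate 3 (-0.089), a range of -0.15 to 0.32. Dtx3 changed sign for shControl-CM against control medium with library totals (-0.033) and thinning (-0.050). Members called between the conditioned media were 2 (Dtx4 and Notch3) with library totals, with edgeR's filter and with all groups in one fit, and 1 to 2 when a library was left out. Against control medium they were 3 to 6 with shControl-CM and 6 to 7 with shBrca2-CM when a library was left out, with 3 without control medium replicate 1.

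Of all genes, 341 were called between the conditioned media, 130 at the stricter threshold (adjusted p 0.05, log2 fold change 1) and 128 to 976 when a library was left out (976 without shControl-CM replicate 1). With shControl-CM, 4488 were called, 2864 after thinning, 2377 at the stricter threshold and 1901 to 5157 when a library was left out (1901 without control medium replicate 1). With shBrca2-CM, 4555 were called and 2183 at the stricter threshold. Other pathway genes numbered 0 at the stricter threshold between the conditioned media (0 to 4 when a library was left out), 13 after thinning, 10 at the stricter threshold and 5 to 22 when a library was left out with shControl-CM, and 9 at the stricter threshold with shBrca2-CM. Library totals moved the median of all genes by 0.11 between the conditioned media (249 higher and 120 lower calls, against 170 and 171) and by -0.12 for shControl-CM (1798 and 2671, against 2200 and 2288).

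Replicate numbers did not pair the libraries: deviations of the same-numbered conditioned medium libraries correlated at -0.036, 0.0051 and 0.13, and not every library correlated best with its own number. With the replicate block, 311, 4513 and 3850 genes and 1, 6 and 6 members were called in the 3 comparisons, with Dtx4 lower with shControl-CM than in control medium (-0.81, edgeR adjusted p = 0.0492). Depth limits the folds of Hey1, Hey2 and the low pathway genes in conditioned medium.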
